A study of Arabidopsis thaliana with 18 samples.

Results

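OSM34, AT1G02360 and AT4G16260 are Arabidopsis genes for 3 kinds of pathogenesis-related protein: an osmotin, a chitinase family protein and a glycosyl hydrolase of the family that holds the plant beta-glucanases. They were found by symbol or locus in the probe annotation of the array, and they were chosen by their measured signal, which was lower after auxin than after solvent in cells carrying an empty vector. They are 3 of the 13355 genes that had a probeset of their own. Each has 1 such probeset: 254889_at for OSM34 (locus AT4G11650), 259443_at for AT1G02360 and 245393_at for AT4G16260. All 3 passed the filter on low signals.

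Plants make pathogenesis-related proteins when they meet microbes, wounding or stress. Osmotin belongs to the thaumatin-like proteins, which can damage fungal membranes and also accumulate under salt and drought. Chitinases cut chitin, a polymer of fungal cell walls, and beta-glucanases cut the glucans of fungal walls and the plant's own callose. Auxin acts by destroying the Aux/IAA proteins, repressors that hold auxin response factors inactive, and both IAA7 and IAA19 are Aux/IAA proteins.

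The arrays measured root protoplasts, cells whose walls had been digested away, in 6 groups of 3 arrays. The cells carried an IAA19mII over-expressor, an IAA7mII over-expressor or an empty vector, and each was treated for 3 h with 5 µM indole-3-acetic acid (IAA, the main natural auxin) or with solvent (mock). The suffix mII is not spelled out in the labels. All groups shared their plant material and handling: Col-0 seedlings carrying the Pwer::GFP reporter were grown for 7 days, their roots were digested for 3 h, and the protoplasts were transformed with polyethylene glycol and kept overnight. Cells with green and red fluorescence were sorted, so each array measured a population marked by the WER promoter and by uptake of a plasmid. Both over-expressors were built in pBeaconRFP and the empty vector was pMON999_mRFP, so a difference between an over-expressor and the empty vector cannot be told apart from a difference between plasmids. IAA19mII and IAA7mII cells share the backbone. In such bulk samples, fewer cells of a type and less RNA per cell cannot be told apart.

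Values are MAS5 signals, a linear intensity per probeset. The trimmed means of the 18 arrays lay between 246 and 248, and the 75th percentiles were 220 to 238 on over-expressor arrays and 264 to 275 on empty vector arrays. Of 22746 probesets, 16892 were tested. Nothing in the labels tells if the 3 arrays of a group came from separate protoplast preparations, and p-values therefore reflect a spread that could be technical. Of the markers listed for root cell types, EXPA7, a root hair expansin of the epidermis, was the 1 gene above the filter. Its signal was 64 to 134 in IAA19mII cells with IAA, 40.8 to 203 in IAA19mII mock cells, 19.2 to 63.6 in IAA7mII cells with IAA, 25.9 to 39.2 in IAA7mII mock cells, 19.1 to 218 in empty vector cells with IAA and 51.1 to 54.7 in empty vector mock cells. Markers of lateral root cap, endodermis and stele had no probeset of their own in the annotation and were not analysed here.

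OSM34, the osmotin gene, had the highest signal in IAA19mII cells. The IAA19mII arrays read 9086, 8345 and 11566 with IAA, and 8919.7, 7724 and 9644 in mock cells. The IAA7mII arrays read 4988, 4967 and 4138 with IAA, and 4403, 4530.2 and 4197 in mock cells. The empty vector arrays read 1721, 1108.5 and 1169.9 with IAA, and 2573, 2593 and 2891 in mock cells. Every IAA19mII array was above every IAA7mII array. Within single treatments, 9.57% (mock) and 9.43% (IAA) of tested probesets had that order, and the share over both treatments together was not counted. Every IAA7mII array was above every empty vector array, but the empty vector arrays chose the gene and nothing is read from that part. Within each over-expressor, the IAA and mock arrays overlapped, whereas in empty vector cells all IAA arrays were below all mock arrays.

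AT1G02360, the chitinase family gene, followed the same order of vectors at lower signals. With IAA, its arrays read 5579, 5500.3 and 4132 in IAA19mII cells, against 4095, 3689.7 and 3663 in IAA19mII mock cells. In IAA7mII cells they read 2927.5, 4291 and 2570.4 with IAA, against 2427, 2164 and 2326 in mock cells. In empty vector cells they read 756, 837.5 and 1109 with IAA, against 1632.5, 1989.5 and 1501 in mock cells. All IAA arrays lay above all mock arrays in both over-expressors and below them in the empty vector. The empty vector part of this order chose the gene, and the over-expressor part was found for 0.456% of the tested probesets. IAA19mII mock and IAA7mII IAA arrays overlapped, through the IAA7mII array of 4291, and the other neighbours in the order of groups did not.

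AT4G16260, the glycosyl hydrolase gene, had overlapping signals in both over-expressors and low signals with the empty vector. With IAA, its arrays read 846, 499 and 994 in IAA19mII cells, against 921, 724 and 1017.5 in IAA19mII mock cells. In IAA7mII cells they read 1224.5, 535 and 526 with IAA, against 768, 858 and 876.5 in mock cells. In empty vector cells they read 73.6, 69.6 and 66.9 with IAA, against 198, 184 and 294 in mock cells. The 4 over-expressor groups overlapped from each neighbour in the order to the next, while the empty vector mock arrays lay below all of them and the empty vector IAA arrays lay lowest. The first IAA7mII IAA array, at 1224.5, was more than its group's other arrays and the highest of all 18.

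**Figure D1:**
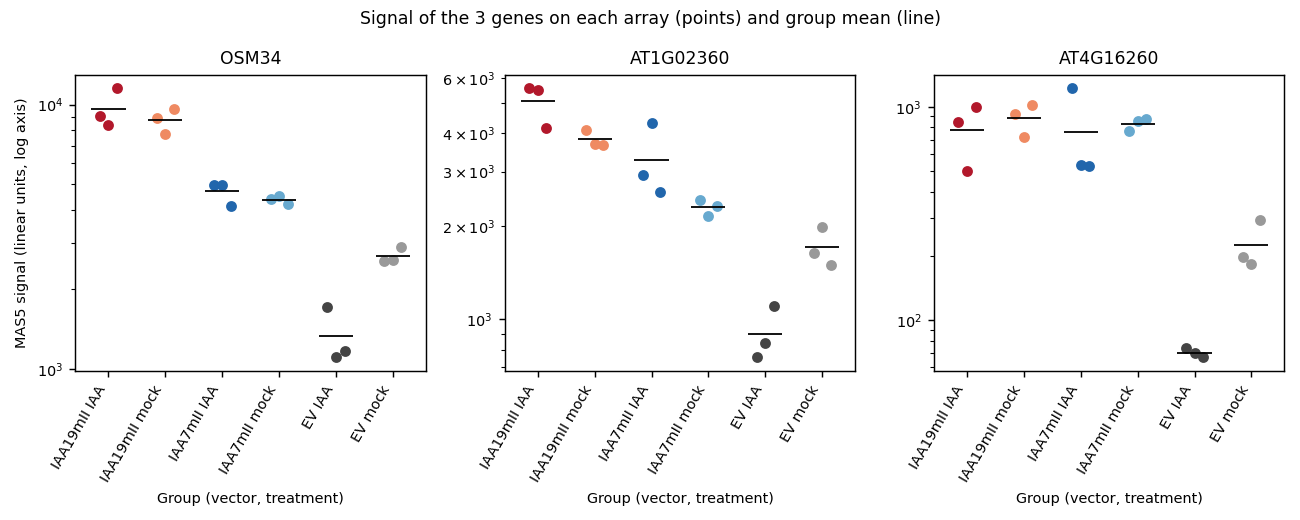
MAS5 signal (log axis) of each gene on every array, by vector and treatment, with points for arrays and a line for the mean of 3 arrays. OSM34 and AT1G02360 step down by vector, whereas AT4G16260 has overlapping signals of 499 to 1225 on all over-expressor arrays and 66.9 to 294 on empty vector arrays.

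For each of the 3 genes, the 12 over-expressor arrays did not overlap the 6 empty vector arrays. The ranges were 4138 to 11566 against 1108.5 to 2891 for OSM34, 2164 to 5579 against 756 to 1989.5 for AT1G02360, and 499 to 1224.5 against 66.9 to 294 for AT4G16260. Of all tested probesets, 3.42% had every over-expressor array above every empty vector array. The empty vector arrays chose these genes, so nothing is read from that share and comparisons with them are given as values, with no test.

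The response to IAA in empty vector cells is the contrast that chose the genes. On the log2(signal + 16) scale, on which all differences below are given and which understates the change of low signals, OSM34 differed by -1.03 ± 0.16 (SE, n = 3 against 3 arrays), AT1G02360 by -0.92 ± 0.19 and AT4G16260 by -1.46 ± 0.29. These are folds of 2.04, 1.89 and 2.75 below mock. In that comparison 0.403% of tested probesets were called lower, and 6.48% had all IAA arrays below all mock arrays; nothing is read from the members being among them. Of 8 genes on an early auxin list, 4 were called higher in IAA19mII cells, 3 in IAA7mII cells and 8 in empty vector cells, where 0.077%, 0.071% and 0.332% of all probesets were called higher. That list was chosen with earlier results of these data known, so the counts are a description and nothing is read from them.

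The over-expressor arrays took no part in that contrast, so the response to IAA was tested in them. None of the 3 genes passed the test in either over-expressor (limma, Benjamini-Hochberg adjusted over all 16892 probesets), where 0.0888% of probesets were called in each. OSM34 differed by 0.13 ± 0.16 in IAA19mII cells (95% interval -0.20 to 0.47, adjusted p = 0.865) and by 0.10 ± 0.16 in IAA7mII cells (-0.24 to 0.43, adjusted p = 0.935).

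AT1G02360 lay higher with IAA in both over-expressors without passing the test. Its difference was 0.40 ± 0.19 in IAA19mII cells (95% interval 0.01 to 0.79, limma unadjusted p = 0.0453, adjusted p = 0.554). In IAA7mII cells it was 0.46 ± 0.19 (0.08 to 0.85, limma unadjusted p = 0.0208, adjusted p = 0.577), and it was 0.25 without IAA replicate 2, the array of 4291. An unadjusted p under 0.05 was reached by 8.82% of probesets in IAA19mII cells and by 7.73% in IAA7mII cells. Groups that did not overlap, with IAA higher, were found for 6.13% and 4.48% of probesets in those cells.

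AT4G16260 differed by -0.22 ± 0.29 in IAA19mII cells (95% interval -0.83 to 0.38, limma adjusted p = 0.876) and by -0.24 ± 0.29 in IAA7mII cells (-0.85 to 0.36, adjusted p = 0.901). Single arrays moved both values. In IAA19mII cells the value was 0.06 without IAA replicate 2 and -0.42 without IAA replicate 3, and it was -0.36 and -0.12 without mock replicates 2 and 3. In IAA7mII cells it was -0.64 without IAA replicate 1, -0.05 without replicate 2 and -0.04 without replicate 3, and the limma adjusted p without replicate 1 was 0.441.

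The responses of IAA19mII and IAA7mII cells were also set against each other. The response in IAA19mII cells minus that in IAA7mII cells was 0.04 ± 0.23 for OSM34 (95% interval -0.44 to 0.51, limma adjusted p = 0.991), -0.07 ± 0.27 for AT1G02360 (-0.62 to 0.48, adjusted p = 0.985) and 0.02 ± 0.42 for AT4G16260 (-0.84 to 0.87, adjusted p = 0.999). The fit called 0.0178% of probesets here, and 6.34% had an unadjusted p under 0.05. The intervals are wide, and a p above the threshold does not show that the responses are alike. Against the empty vector response, the IAA19mII response was higher by 1.16 for OSM34, 1.32 for AT1G02360 and 1.24 for AT4G16260, and the IAA7mII response by 1.12, 1.38 and 1.22 for the same genes. Both comparisons share the empty vector arrays that chose the genes, so these are values with no test.

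**Figure D2:**
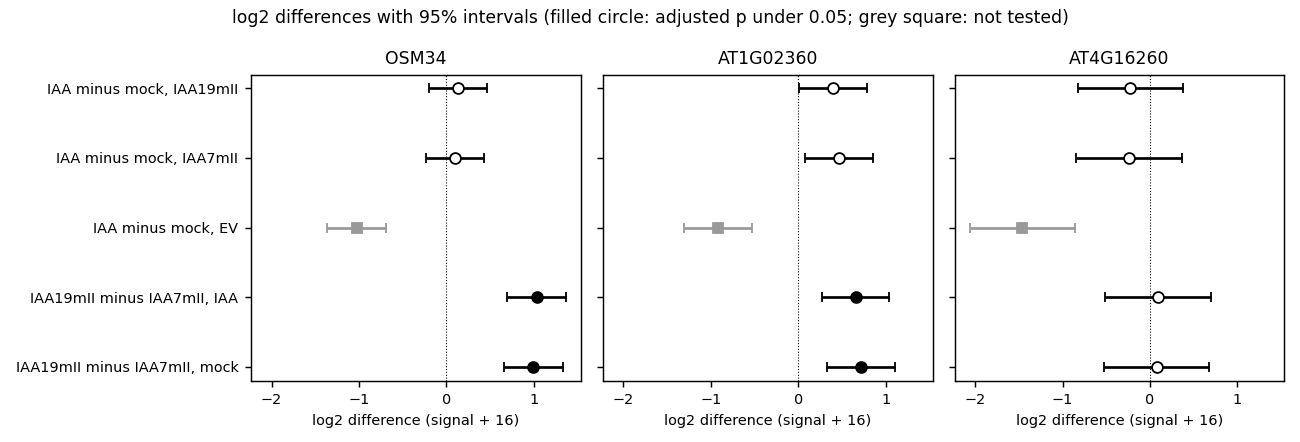
Differences in log2(signal + 16) with 95% intervals, for the IAA response in each vector and for IAA19mII minus IAA7mII in each treatment. Filled circles passed an adjusted p of 0.05, open circles did not, and grey squares (empty vector response) were not tested. The filled circles are OSM34 and AT1G02360 in both IAA19mII minus IAA7mII comparisons.

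IAA19mII and IAA7mII cells differed in OSM34 and AT1G02360 and did not pass the test for AT4G16260. OSM34 was 1.99-fold higher in IAA19mII than in IAA7mII mock cells (0.99 ± 0.16, limma adjusted p = 0.00022) and 2.04-fold higher with IAA (1.03 ± 0.16, adjusted p = 0.000126). Its mean signals with IAA were 9666 ± 1687 in IAA19mII cells and 4698 ± 485 in IAA7mII cells (SD, n = 3 each). In mock cells they were 8763 ± 970 in IAA19mII cells and 4377 ± 168 in IAA7mII cells. OSM34 kept its call under all 29 alternative settings in each treatment, though many of them leave out an array outside the comparison and so do not change the difference. Leaving out single arrays gave 0.92 to 1.08 in mock cells and 0.89 to 1.13 with IAA.

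AT1G02360 was 1.65-fold higher in IAA19mII than in IAA7mII mock cells (0.72 ± 0.19, limma adjusted p = 0.0225), with no overlap of arrays. With IAA it was 1.57-fold higher (0.66 ± 0.19, limma adjusted p = 0.0344), and the arrays overlapped. The mean signals with IAA were 5070.5 ± 814 in IAA19mII cells and 3263 ± 908 in IAA7mII cells (SD, n = 3 each), and those of mock cells were 3816 ± 242 in IAA19mII cells and 2306 ± 133 in IAA7mII cells. These calls were close to the threshold. The mock call was lost without any 1 of its 6 arrays, at differences of 0.67 to 0.76 and limma adjusted p of 0.0509 to 0.101. The IAA call was lost without IAA7mII replicate 1 (0.59) or 3 (0.50) or IAA19mII replicate 1 (0.58) or 2 (0.59), at limma adjusted p of 0.106 to 0.152.

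AT4G16260 differed between IAA19mII and IAA7mII by 0.08 ± 0.29 in mock cells (95% interval -0.53 to 0.68, limma adjusted p = 0.951) and by 0.09 ± 0.29 with IAA (-0.51 to 0.70, adjusted p = 0.903). Without single arrays of the groups compared, these values ranged from -0.03 to 0.21 in mock cells and from -0.11 to 0.49 with IAA, the highest without IAA7mII IAA replicate 1. IAA19mII minus IAA7mII called 4.37% of probesets in mock cells and 6.64% with IAA, and called 2.33% higher in both. OSM34 and AT1G02360 are among those 2.33%. Counted as higher alone, the calls were 3.14% in mock cells and 4.17% with IAA, and 9.57% and 9.43% of probesets had all IAA19mII arrays above all IAA7mII arrays in those treatments.

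The differences from the empty vector are given for each gene in turn, and for AT4G16260, whose empty vector signals were low, they depended on the constant added before the log. With 64 added, the IAA19mII difference with IAA was 2.61 in place of 3.15. In IAA19mII cells it was 3.78-fold higher in mock cells and 8.90-fold higher with IAA. In IAA7mII cells it was 3.59-fold higher in mock cells and 8.35-fold higher with IAA. OSM34 was 3.24-fold (mock) and 7.25-fold (IAA) higher in IAA19mII cells, and 1.63-fold (mock) and 3.55-fold (IAA) higher in IAA7mII cells. AT1G02360 was 2.24-fold (mock) and 5.57-fold (IAA) higher in IAA19mII cells, and 1.35-fold (mock) and 3.54-fold (IAA) higher in IAA7mII cells. For each gene and over-expressor the fold was larger with IAA than in mock cells, a comparison into which the lower empty vector IAA arrays enter. The median of all tested probesets lay at -0.14 (mock) and -0.17 (IAA) for IAA19mII minus empty vector, and at -0.09 (mock) and -0.17 (IAA) for IAA7mII minus empty vector.

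The other genes of the same families, from lists of 22 thaumatin-like, 23 chitinase and 49 glycosyl hydrolase family genes besides the members, were tested in every comparison. Of these, 9, 9 and 21 passed the filter. None of the 39 was called in the response to IAA in any vector or in any difference of responses (limma), where 0.734% of probesets were called for the empty vector response. In the IAA19mII and IAA7mII responses 0.0888% each were called. For the response in IAA19mII minus empty vector 0.0888% were called, for IAA7mII minus empty vector 0.0651%, and for IAA19mII minus IAA7mII 0.0178%. A count of 0 among 39 is near such shares, and nothing is read from it. Over the alternative settings, 0 to 1 glycosyl hydrolase genes were called higher in the IAA7mII response. The 39 include the genes left out of the counts below. At an unadjusted p under 0.05, 5.16% of all probesets passed for the empty vector response, 4.88% for IAA19mII minus empty vector and 5% for IAA7mII minus empty vector.

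Among the 9 tested chitinases, AT4G19720 and AT2G43580 were above the filter level on no array of at least 1 vector, so they entered the test through the cells where they are high and are left out of the counts that follow. This choice was made after seeing the data. In IAA19mII mock cells 4 of the other 7 rose and 1 fell against the empty vector, with a median of 1.26, where 14.5% of all probesets were called, 6.64% higher and 7.83% lower. With IAA 4 of 7 rose and 0 fell (median 1.41), where 23.5% were called, 9.26% higher and 14.3% lower. In IAA7mII cells 2 of 7 rose and 0 fell against the empty vector in mock cells (median 0.40), where 11.4% were called, 5.33% higher and 6.09% lower. With IAA 2 of 7 rose and 0 fell (median 0.29), where 19.5% were called, 7.72% higher and 11.7% lower. CHI and AT3G47540, both of the chitinase family, rose in both over-expressors, and these calls held in every alternative setting. Against the empty vector in mock cells, the call of AT2G43590 in IAA19mII cells was lost without any 1 of the 6 arrays compared (limma adjusted p of 0.0569 to 0.14), and the fall of AT2G43610 was lost in 11 of 28 settings, each of those arrays included.

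CHI read 2058, 2690.4 and 2017 with IAA and 2410.2, 2226 and 1513 mock in IAA19mII cells. It read 1253, 1499 and 999 with IAA and 1035, 1193 and 1243 mock in IAA7mII cells. In empty vector cells it read 405, 337 and 455 with IAA and 476, 433 and 403 mock. The arrays of CHI did not overlap between vectors, narrowly so between an IAA7mII array of 1499 and an IAA19mII array of 1513. Of all probesets, 3.42% had every over-expressor array above every empty vector array. All IAA19mII arrays lay above all IAA7mII arrays for 9.57% in mock cells and 9.43% with IAA. The share with the full order of vectors was not counted. CHI was 2.59-fold higher in IAA7mII than in empty vector mock cells (1.37 ± 0.21, limma adjusted p = 4.62e-05) and 1.73-fold higher in IAA19mII than in IAA7mII mock cells (0.79 ± 0.21, adjusted p = 0.0242). The second call was lost in 6 of 29 settings, among them leaving out any 1 of the IAA7mII mock arrays or IAA19mII mock replicate 1 or 2, at differences of 0.66 to 0.85 and limma adjusted p of 0.0506 to 0.153.

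AT3G47540 resembled AT4G16260 in having no called difference between the over-expressors. It read 441, 1021 and 851 with IAA and 504.5, 643 and 443 mock in IAA19mII cells, and 514, 690.5 and 411 with IAA and 669, 460.5 and 370.5 mock in IAA7mII cells. Empty vector arrays read 53.4, 61.2 and 40.7 with IAA and 72.1, 65.6 and 63.8 mock. The difference from the empty vector in mock cells was 2.70 in IAA19mII cells and 2.59 in IAA7mII cells, and IAA19mII minus IAA7mII was 0.11 ± 0.30 (limma adjusted p = 0.927).

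Between IAA19mII and IAA7mII, 3 of the 7 chitinases rose and 1 fell in mock cells, where 3.14% of all probesets were called higher and 1.23% lower. With IAA 3 rose and 0 fell, where 4.17% were called higher and 2.47% lower. Besides CHI, the genes that rose were AT2G43590 and ChiC, a class V chitinase. In mock cells the differences were 2.25 for each, and they kept their calls in all 29 settings. With IAA they were 1.53 and 1.56, and each call was lost in 6 of 29 settings, with limma adjusted p up to 0.12 for AT2G43590 and 0.0981 for ChiC. Leaving out IAA7mII IAA replicate 1 or 3 or IAA19mII IAA replicate 1 ended both calls, and leaving out IAA19mII IAA replicate 2 ended that of AT2G43590. The CHI call with IAA was lost in 3 of 29 settings: without IAA7mII IAA replicate 3 (0.70), without IAA19mII IAA replicate 2 (0.72) and with array weights (0.85, limma adjusted p = 0.0562). AT4G19720 was above the filter level on 6 IAA19mII arrays, 1 IAA7mII array and 0 empty vector arrays. Its signal was 117 to 206 with IAA and 103 to 250.0 mock in IAA19mII cells, and 2.6 to 44.7 with IAA and 1.9 to 5.9 mock in IAA7mII cells. AT2G43610 went the other way in mock cells, with 233 ± 20.7 in IAA19mII cells and 760.1 ± 153 in IAA7mII cells (SD, n = 3 each), a difference of -1.62 ± 0.29 (limma adjusted p = 0.000573). With IAA its difference was -0.28 ± 0.29 (adjusted p = 0.651).

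**Figure D3:**
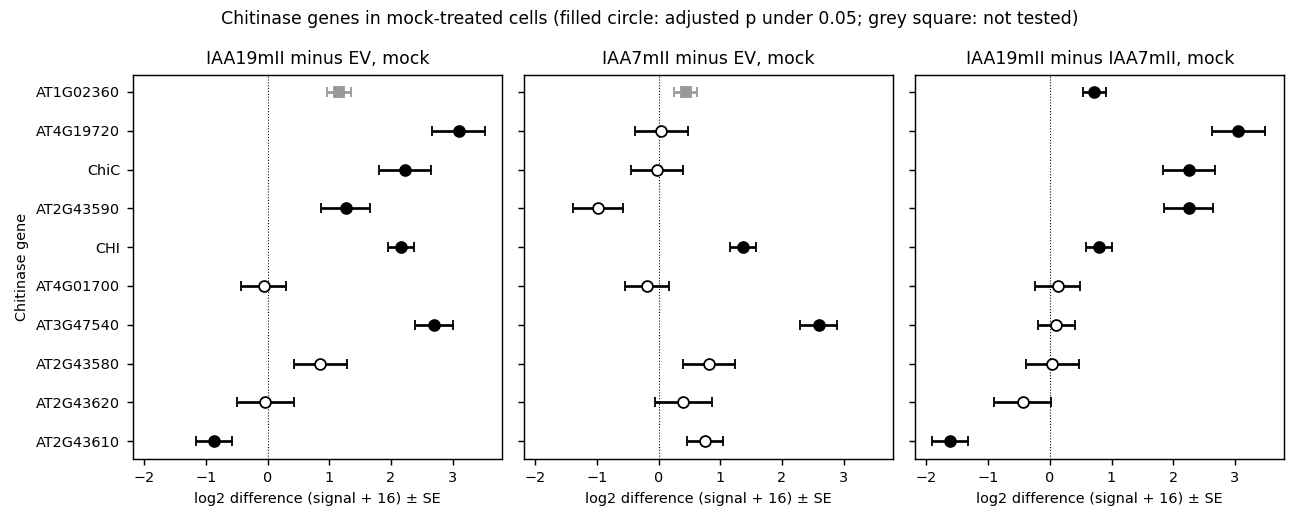
Differences in log2(signal + 16) with SE for AT1G02360 (top row) and the 9 other tested chitinase genes in mock cells. The panels show IAA19mII minus empty vector, IAA7mII minus empty vector and IAA19mII minus IAA7mII. CHI lies to the right of 0 in every panel, and AT4G19720 entered the test through its IAA19mII arrays. Filled circles passed an adjusted p of 0.05 and grey squares were not tested.

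Among the 9 thaumatin-like genes, AT1G19320, AT2G17860 and AT4G38660 were above the filter level on no array of at least 1 vector and are left out of the counts, as are 4 of the 21 glycosyl hydrolase genes. Of the other 6 thaumatin-like genes, 1 rose in IAA19mII over IAA7mII mock cells, where 3.14% of all probesets were called higher, and 0 were called with IAA. That gene, AT5G24620, averaged 1011 ± 93.4 in IAA19mII mock cells and 434 ± 90.0 in IAA7mII mock cells (SD, n = 3 each; 1.21 ± 0.22, limma adjusted p = 0.000945). Of the other 17 glycosyl hydrolase genes, 1 fell in mock cells, where 1.23% of all probesets were called lower, and 1 rose and 1 fell with IAA, where 4.17% were called higher and 2.47% lower. AT5G55180 was the gene that fell in both, by 0.90 in mock cells (limma adjusted p = 0.00972) and by 1.19 with IAA (adjusted p = 0.000474). The mock call was lost without IAA7mII mock replicate 1, which gave a limma adjusted p of 0.124 and a fall by 0.59. That call was also lost without the intensity trend (limma adjusted p = 0.0856). The rise with IAA was that of AT4G34480, and it was lost in 7 of 29 settings, among them leaving out IAA7mII IAA replicate 3 (1.19) or IAA19mII IAA replicate 1 (1.32) or 3 (1.22).

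Against the empty vector, 0 of the 6 thaumatin-like genes rose and 1 fell in IAA19mII cells in each treatment. The falls were of different genes, AT4G36010 in mock cells (-1.37) and AT1G75800 with IAA (-1.74). In IAA7mII cells 0 rose and 1 fell in mock cells, AT5G24620, and 0 were called with IAA. The AT1G75800 call was lost in 6 of 28 settings and the AT5G24620 call in 8 of 28. Of all probesets, 6.64% were called higher and 7.83% lower in IAA19mII mock cells, and 9.26% and 14.3% with IAA. In IAA7mII cells the shares were 5.33% higher and 6.09% lower (mock), and 7.72% and 11.7% (IAA). Of the 17 glycosyl hydrolase genes, 0 rose and 1 fell in IAA19mII mock cells, and 4 rose and 2 fell with IAA, where 9.26% of all probesets were called higher and 14.3% lower. Over the alternative settings that last count, on all 21 genes, ranged from 0 to 4 higher and from 0 to 3 lower, and AT4G18340, one of the 4, lost its call in 15 of 27. AT4G18340 was above the filter level on 5 IAA19mII arrays, 1 IAA7mII array and 1 empty vector array. It thus entered the test through the cells where it is high, and nothing is read from its call. In IAA7mII cells 1 of the 17 rose and 0 fell (mock) and 2 rose and 1 fell (IAA).

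Lists for defence and stress hormones could be read for few genes. Of 15 pathogenesis-related marker genes, 4 had a probeset of their own and 0 passed the filter: PDF1.2, PDF1.2b, THI2.1 and LCR67 had highest signals of 18.1, 27.8, 13.6 and 4.8 on any array. The 4 were not tested. EIN3, a transcription factor of ethylene signalling, and LTI30 and COR47, dehydrins of the cold and drought response, were tested and called in no comparison. Genes of jasmonate and salicylate signalling were not analysed here.

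The genes most like each member were sought over all 18 arrays as those with the smallest root-mean-square difference of log2 values after centring each gene on its mean, among 9390 genes. OSM34 was closest to AT5G41810 (0.33), to GH3.17 (0.36), which encodes an enzyme that joins auxin to amino acids, and to AT1G02360 (0.37). AT1G02360 was closest to AT5G49760 (0.30), to GTR1, a glucosinolate transporter gene (0.30), and to AT4G28085 (0.31). AT4G16260 was closest to AT3G46700 (0.39), AT3G05400 (0.39) and AT1G17310 (0.43). Among the genes nearest to AT1G02360, OSM34 ranked 13. Among the genes nearest to OSM34, AT4G16260 ranked 117, and among those nearest to AT1G02360 it ranked 1020. In the other direction, OSM34 ranked 32 and AT1G02360 ranked 101 among the genes nearest to AT4G16260. These are descriptions of 18 arrays that share 6 groups, with no test. The empty vector arrays that chose the members enter the differences, so nothing is read from the closeness of members to each other.

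**Figure D4:**
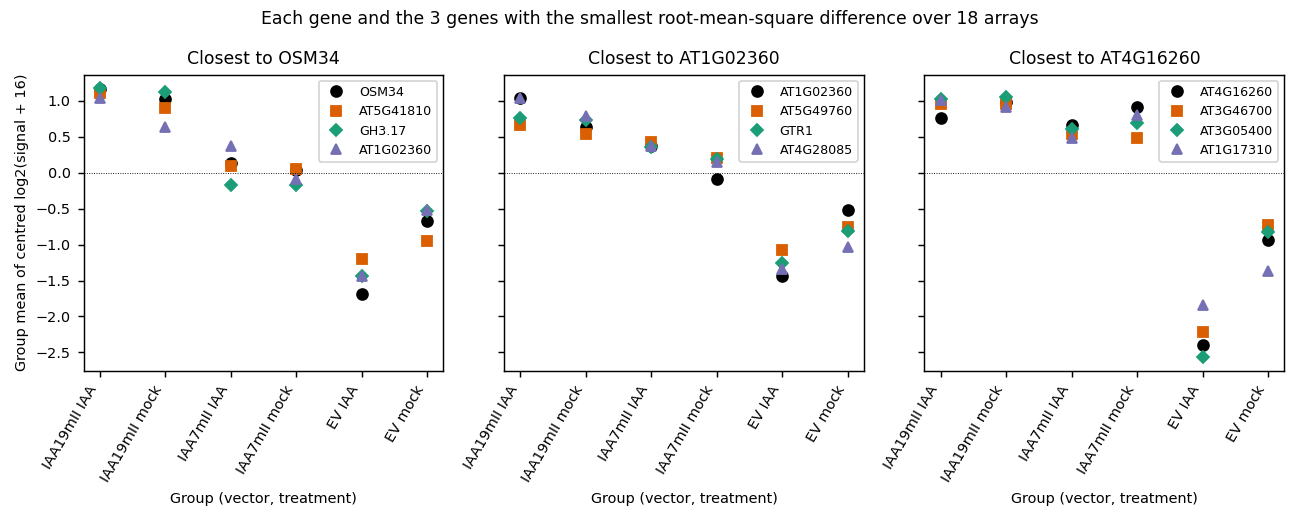
Group means of centred log2(signal + 16) for each member (black circle) and its 3 closest genes, by vector and treatment. OSM34 and AT1G02360 appear together in the first panel, with a root-mean-square difference of 0.37. AT1G02360 in the middle panel and AT4G16260 in the last have no other member among their closest genes.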

How the data were processed

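The authors deposited, for each of the 18 arrays, a linear signal intensity for every probeset. MAS5 is named in the submitters' processing notes, with no version. Its scaling was kept. Gene names come from the platform's probe annotation, in which 13513 probesets carry 1 gene, 503 several and 8730 none. The TAIR10.1 table of genes served for names alone.

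A probeset was tested if its signal exceeded the 40th percentile of the array on 3 or more arrays. The values log2(signal + 16) of all 18 arrays entered a single limma fit (limma 3.58.1, R 4.3.3) with a mean for each group and an intensity trend. Within each of the 12 comparisons p-values were adjusted by Benjamini-Hochberg, and a call needed an adjusted p under 0.05. The number of arrays limits the precision. The members, gene lists, tests and alternatives were chosen with earlier results of these data known. Named genes are the members, up to 4 called genes of each list (or uncalled ones where none was called), and the 3 closest genes to each member. AT2G43590, AT2G43610, AT2G43580, AT4G18340 and AT4G38660 were added after their values were seen. Across probesets, arrays of the same group correlated at 0.918 to 0.973 (Pearson), and 0 pairs of arrays were identical. Deviations of arrays with the same replicate number correlated weakly (-0.06 to 0.16 over 45 pairs), and the numbers were not used as pairs. Every array correlated best with its own number between IAA19mII and IAA7mII mock cells (0.060 to 0.070) and between those cells with IAA (0.036 to 0.061). It did so too for IAA19mII mock with IAA7mII IAA and for IAA19mII IAA with IAA19mII mock, and in no pair with the empty vector. The called member differences lie in the first 2 of these pairs. What the number stands for was not tested.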

Additional observations from a re-analysis of the deposited data

Results flagged for a closer look

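The order of IAA and mock arrays for AT1G02360 was opposite with and without an over-expressor. Every IAA array lay above every mock array in IAA7mII and in IAA19mII cells, and every IAA array lay below every mock array in empty vector cells. The order in the over-expressors was found for 4.48% of tested probesets in IAA7mII cells, 6.13% in IAA19mII cells and 0.456% in both. The order in empty vector cells, found for 6.48%, is the part that chose the gene. The response difference was 1.38 for IAA7mII minus empty vector and 1.32 for IAA19mII minus empty vector on the log2 scale. The difference was not tested, because the empty vector contrast chose the gene. Without IAA7mII IAA replicate 2, the IAA7mII response was 0.25. The over-expressor responses alone did not pass adjustment over all probesets.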

How the results depend on the processing

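No member's called difference reversed under any alternative. OSM34 kept both IAA19mII minus IAA7mII calls, at adjusted p of 3.87e-05 to 0.0158 in mock cells and 2.38e-05 to 0.0105 with IAA. AT1G02360 lost the mock call in 7 of 29 settings: without the intensity trend (0.72, limma adjusted p = 0.132) and without any 1 compared array (0.67 to 0.76). It lost the IAA call in 9 of 29: median centring (0.62), quantile normalization (0.60), no trend (0.66), array weights (0.73), only the groups compared (0.66) and 4 single arrays (all single-array values 0.50 to 0.87). Over all 29 settings, those that kept the call included, its limma adjusted p was 0.00528 to 0.132 in mock cells and 0.00584 to 0.152 with IAA. The cause was not tested.

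Untested differences from the empty vector moved under median centring to 1.94 (IAA19mII mock), 3.14 (IAA19mII with IAA), 0.92 (IAA7mII mock) and 2.15 (IAA7mII with IAA) for OSM34, and to 1.40, 2.76 and 2.14 for AT1G02360 in IAA19mII mock, IAA19mII IAA and IAA7mII IAA cells. Quantile normalization gave 2.59 for OSM34 in IAA19mII cells with IAA. A pseudocount of 64 gave 2.61 (IAA19mII) and 2.52 (IAA7mII) for AT4G16260 with IAA. Leaving out single arrays gave 2.67 to 3.26 for the last of these, and 0.82 to 1.42 for the AT4G16260 response in IAA7mII minus empty vector, both lowest without IAA7mII IAA replicate 1.

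The replicate number as a block left every member's call in place (OSM34 0.99, adjusted p = 0.000196, and AT1G02360 0.72, adjusted p = 0.02, for IAA19mII minus IAA7mII mock), and gave 24 called probesets in place of 15 for the IAA19mII response. In 4 of 15 pairs of groups, all of over-expressor groups, every array correlated best with its own number.

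Counts of called probesets ranged, against the count reported, from 66 (no trend) to 328 (array weights) for 124 in the empty vector response. They ranged from 8 (only the groups compared) to 35 (without IAA7mII IAA replicate 1) for 15 in the IAA7mII response, and from 5 (only the over-expressor arrays) to 24 for 15 in the IAA19mII response. For response differences they ranged from 5 to 22 for 11 (IAA7mII minus empty vector), from 3 to 27 for 15 (IAA19mII minus empty vector) and from 3 to 7 for 3 (IAA19mII minus IAA7mII). For mock cells they ranged from 1214 to 3031 for 1928 (IAA7mII minus empty vector) and from 1552 to 3965 for 2445 (IAA19mII minus empty vector), and with IAA from 480 to 1220 for 1122 (IAA19mII minus IAA7mII). Of 1242 settings of 44 called family results, 122 lost the call and 0 reversed. The 44 include results of AT4G19720, AT1G19320 and AT2G17860, which are left out of the counts above. Many of the settings leave out an array outside the comparison, which does not change the difference, so no stability of the calls is read from that share. Among all 9 tested chitinases, 1 to 4 were called higher in IAA19mII over IAA7mII cells with IAA, where 4 were called in the fit reported and 3 of 7 without the genes above the filter level on no array of some vector, an alternative chosen after seeing the data. A batch block could not be run because the array files name no batch, and each member has 1 probeset, so no other could be tried.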
